A study of Mus musculus with 20 samples.

Results

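The genes of the cytosolic ribosomal proteins were followed across macrophages exposed to fractions of airway lavage fluid. The 86 genes were taken by a rule on name and level: protein-coding genes whose symbol begins with Rpl or Rps and a digit, together with Rplp0, Rplp1, Rplp2 and Rpsa, without the S6 kinases and the named pseudogenes, and with a mean of at least 3 CPM (counts scaled to library size) over the 20 libraries. The rule uses no fold change, but it was set with earlier results of these data known. They were 86 of the 78409 genes listed, of which 34373 had a count in at least 1 library. The name and type rule alone gave 90 genes. Just outside the level lay Rps23rg1 (mean 1.24 CPM), Rpl10l (0.996), Rpl3l (0.365) and Rpl27rt (0.111), and just inside lay Rps4l (3.14 CPM) and Rpl39l (8.45). Of the 86 genes, 77 encode core subunits (46 of the large 60S and 31 of the small 40S subunit), 8 are copies or paralogs (Rps27rt, Rpl35rt, Rps4l, Rpl39l, Rpl7l1, Rpl22l1, Rps27l and Rpl36al) and 1, Rps19bp1, encodes a protein that binds Rps19 and is no subunit. Fau and Rack1, whose genes encode core proteins under other symbols, fell outside the rule and are described with the related genes.

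Bone marrow-derived macrophages (BMDMs) of wild-type C57BL/6J background, grown from female donors and used on day 7 of culture, received PBS or a fraction of bronchoalveolar lavage fluid from mice with ovalbumin-induced airway inflammation. The fluid came from RNY1+/+ or RNY1-/- mice, which differ in the gene of the small Y RNA RNY1, and was separated into an extracellular vesicle-enriched fraction (EVFx) and a protein-enriched fraction (ProteinFx). The 5 groups of 4 libraries were thus PBS, RNY1+/+ EVFx, RNY1-/- EVFx, RNY1+/+ ProteinFx and RNY1-/- ProteinFx. EVFx was added at 35000000 particles per µL and ProteinFx at 0.75 µg protein per µL, after 5 days of storage in the cold, so the EVFx and ProteinFx doses are in different units. In every group the macrophages themselves were wild type and only the donor of the fluid differed in genotype. All library names carried the same prefix, which does not say whether cultures or fluid were handled in batches. Whether a group's 4 libraries are separate cultures, or separate pools of fluid, is not stated in the labels, so the p-values measure only the spread between these libraries, which may be technical.

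A ribosome joins a 40S subunit, which reads the messenger, to a 60S subunit, which forms the peptide bond. Vertebrate messengers of ribosomal proteins typically begin with a C followed by a run of pyrimidines, the 5′ terminal oligopyrimidine (TOP) motif, through which mTOR signalling and the RNA-binding protein Larp1 control their translation and stability. Macrophages that respond to microbial or cytokine signals reshape the production of ribosomes together with the rest of their metabolism.

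The libraries were made from messenger 3′ ends and held 2510005 to 8277366 counts, of which 82947.88 to 428516.87 fell on the 86 genes. Reads that matched several places were split among them, and 85 of the 86 genes held a fractional count in at least 1 library. Named pseudogenes existed for 64 members, and for 32 of these the pseudogenes' CPM exceeded 10% of the member's own, so that values of single members include reads that near-identical copies could share. The 9 macrophage markers summed to 8713 to 13560 CPM in every library, whereas the summed markers of B cells, T cells, airway epithelium, dendritic cells and erythroid cells stayed at or below 4.31 CPM. Fibroblast markers summed to 10.8 to 51.6 CPM, eosinophil markers to 0.80 to 21.1 CPM and neutrophil markers to 144 to 356 CPM, the last mostly S100a8 and S100a9, and their part in the results was not tested. In bulk RNA, fewer cells of a type and less RNA per cell cannot be told apart. Within PBS, replicate 3 stood apart with the lowest share of ribosomal protein counts, and the RNY1-/- ProteinFx libraries split into replicates 1 and 2, with more, and replicates 3 and 4, with less. Counts that rest on these libraries are given with and without them, and a named gene's call is given without them where it was lost.

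The sequences around the annotated transcription start are given for members whose values differ most below, to show how long a pyrimidine run each carries near the start. Of the 86 members, 64 were in the RefSeq promoter table (GRCm38.p6), with 75 starts among 32851. A pyrimidine run was the longest stretch of C or T that covered the start base or reached to within 5 bases of it. With the longest run of each member's starts, 56.25% of the 64 had a run of at least 5 bases and 37.5% a run of at least 8, against 32.9% and 9.72% of all starts. Over all 75 starts of members the shares were 50.7% and 32.0%. Each line below gives 30 bases, 14 before the start base, the start base and 15 after it, 5′ to 3′ on the gene's strand, with the run in capitals.
Rps6, chr4:86857352-86857381, minus strand: agcggaagtcgggCCTCTTTTTCgtgacgc
Rpl18, chr7:45718057-45718086, plus strand: gcgtctcgcaggccgCTCTTTCCCCgccca
Rps16, chr7:28350675-28350704, plus strand: ccgcttctgTCgtgacgtagcactcaatgc
Rplp0, chr5:115559453-115559482, plus strand: tcttcgggTTTCgaggaccgcctggttctc
Rps24, chr14:24490664-24490693, plus strand: ccgcgctggggTCCTTCCTTgcgcgttgat
Rps27, chr3:90213633-90213662, minus strand: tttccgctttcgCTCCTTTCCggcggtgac
Rps27l, chr9:66946072-66946101, plus strand: caCTCCTCCCCgccgcctctatcccggaag
Rpl22, chr4:152324422-152324451, plus strand: gctgcttctggaatgTTCCagctcccactg
Rpl22l1, chr3:28805494-28805523, plus strand: tgcggcgcaagcccgTTCTCTTCCCacggc
Rpl39, chrX:37085207-37085236, minus strand: ctaagctccgCCTCTagcgacttcttctaa
Rpl39l, chr16:10170214-10170243, plus strand: tcccaggCCTTTCCggatttccggtggtcg
Rps6 and Rpl22l1 both had runs of 10 bases near the annotated start. The annotated start of Rps16, the member with the lowest fold changes against PBS, had a run of 2. Whether the runs bear on the responses was not tested. In Rps27l, Rpl39l, Rplp0 and Rps16 the run lay wholly before the annotated start base, outside the messenger as annotated. Letters of promoter motifs were searched on both strands in the window from 250 bases before to 50 after each start. CCGGAAG was in 27 of the 75 windows of members (36.0%, against 8.86% of all windows), AAGATGGC in 8 (10.7%, against 2.75%) and TATAAA in 7 (9.33%, against 13.6%).

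Ribosomal protein genes took up the largest share of counts in PBS. Their share was 6.76%, 6.62%, 5.00% and 6.18% in the 4 PBS libraries (mean 6.14% ± 0.800, SD, n = 4). It was 3.83%, 3.78%, 3.94% and 3.94% after RNY1+/+ EVFx (3.87% ± 0.078) and 3.27%, 3.28%, 3.56% and 3.27% after RNY1-/- EVFx (3.34% ± 0.142). All 8 EVFx libraries lay below every PBS library. After RNY1+/+ ProteinFx the share was 3.12%, 3.04%, 3.20% and 2.47% (2.96% ± 0.330), the lowest group mean, and after RNY1-/- ProteinFx it was 4.16%, 4.26%, 3.30% and 3.28% (3.75% ± 0.531). As fractions of the PBS mean, the group means were 0.631 for RNY1+/+ EVFx, 0.545 for RNY1-/- EVFx, 0.482 for RNY1+/+ ProteinFx and 0.610 for RNY1-/- ProteinFx. No test was made on this sum. Most members shared these extremes: the mean CPM was highest in PBS for 80 of 86 members and lowest in RNY1+/+ ProteinFx for 64. Of the others, 14 were lowest in RNY1-/- EVFx, 5 in RNY1+/+ EVFx, 2 in RNY1-/- ProteinFx and 1 in PBS. The order of groups was not counted over all genes, so these numbers do not set the members apart. The summed CPM of the 60S core genes over that of the 40S core genes ranged from 1.08 to 1.22 over the 20 libraries. The group means were 1.18 in PBS, 1.16 after RNY1+/+ EVFx, 1.10 after RNY1-/- EVFx, 1.14 after RNY1+/+ ProteinFx and 1.15 after RNY1-/- ProteinFx. The RNY1-/- EVFx libraries, at 1.08 to 1.12, lay below every PBS library (1.13 to 1.22) and every RNY1+/+ EVFx library (1.14 to 1.18). This ratio was not tested. The mitochondrially encoded share also moved between groups, from a mean of 6.49% in PBS to 4.41% after RNY1+/+ EVFx, 5.77% after RNY1-/- EVFx, 5.13% after RNY1+/+ ProteinFx and 5.42% after RNY1-/- ProteinFx, and was highest in PBS replicate 3 (7.32%). The summed macrophage markers moved too, at 9958 to 13560 CPM in PBS, 8882 to 10115 CPM after RNY1+/+ EVFx, 8713 to 9699 CPM after RNY1-/- EVFx, 10114 to 10773 CPM after RNY1+/+ ProteinFx and 10030.5 to 11669 CPM after RNY1-/- ProteinFx. The part of both in the result was not tested.

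**Figure D1:**
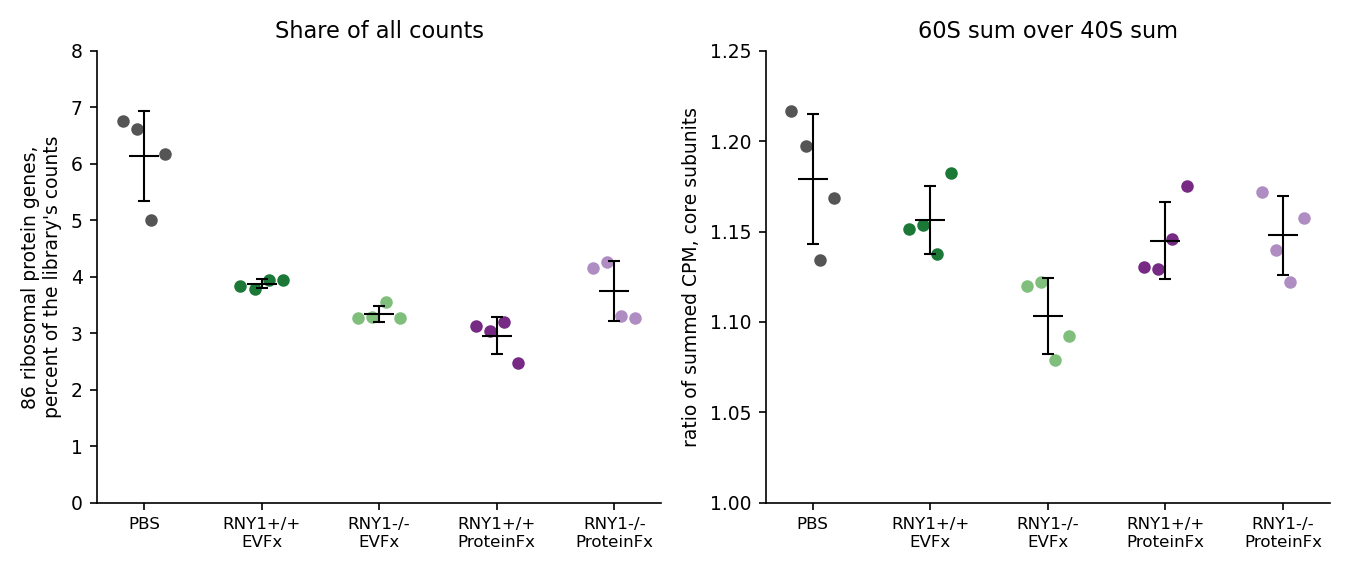
Left, percent of each library's counts on the 86 ribosomal protein genes, and right, the summed CPM of 46 60S core genes over that of 31 40S core genes, by group. Points are libraries and black marks are the mean ± SD (n = 4). The PBS libraries lie between 5.00% and 6.76%, above every other library, and the subunit ratio stays between 1.08 and 1.22.

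Against PBS most members were lower with each of the 4 fractions. A gene was called when edgeR's quasi-likelihood test gave an adjusted p under 0.05, with the adjustment over all genes tested. After RNY1+/+ EVFx 56 of 86 members were lower (of all 10797 genes tested, 22.8% were) and 2 were higher (21.7%), with a median log2 fold change of -0.50 over the members and -0.03 over all genes. After RNY1-/- EVFx 72 were lower (30.7% of all genes) and 3 higher (27.6%), with a median of -0.84. After RNY1+/+ ProteinFx 80 were lower (29.3%) and 1 higher (25.9%), with a median of -1.05, and after RNY1-/- ProteinFx 76 were lower (19% of all genes) and 1 higher (16.7%), with a median of -0.83. The median of all genes was -0.03 in each. By the study's limit for differentially expressed genes, an absolute log2 fold change above 1 with an adjusted p under 0.05, the numbers lower were 3 (8.19% of all genes), 31 (13.5%), 49 (12.4%) and 25 (7.99%), and the single member higher was Rpl39l after RNY1-/- EVFx (9.01% of all genes were higher by this limit). These 4 comparisons share the PBS libraries. Every library of the treated group lay below every PBS library for 50 members after RNY1+/+ EVFx (28.1% of the 10640 genes at 3 CPM or more), 77 after RNY1-/- EVFx (35.9%), 82 after RNY1+/+ ProteinFx (30.7%) and 61 after RNY1-/- ProteinFx (16.7%). Without PBS replicate 3, the numbers lower were 74, 76, 80 and 78. With RNY1-/- ProteinFx replicates 3 and 4 left out, 23 members were lower against PBS with a median of -0.64, and with replicates 1 and 2 left out, 76 were lower with a median of -1.03. The shares of all genes called in these refits are not given here. These counts therefore cannot set a change in the members apart from one in all genes.

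**Figure D2:**
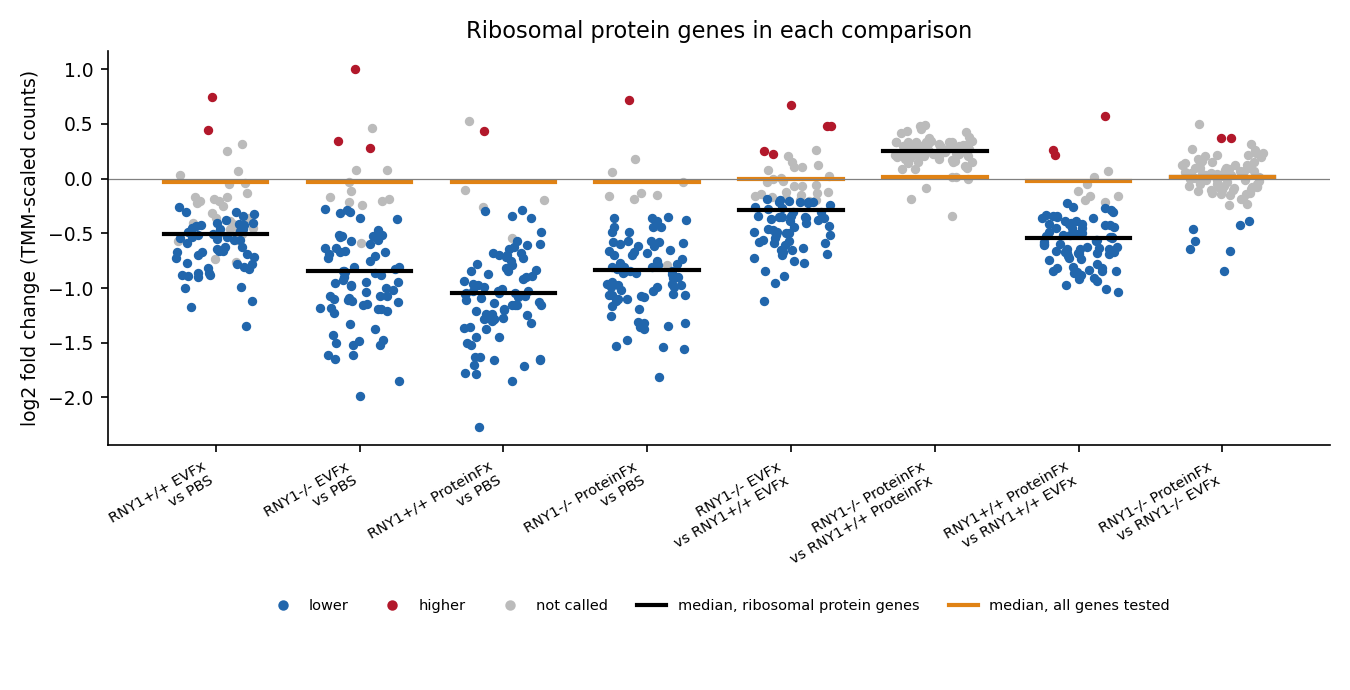
log2 fold change of each member in 8 comparisons. Points are genes, blue when lower and red when higher at an adjusted p under 0.05 (edgeR) and grey otherwise; the black line is the members' median and the orange line the median of all genes tested. In the 4 comparisons with PBS the members' median lies between -0.50 and -1.05 and that of all genes at -0.03.

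The 60S and 40S core genes fell alike. In the comparisons with PBS in the order RNY1+/+ EVFx, RNY1-/- EVFx, RNY1+/+ ProteinFx and RNY1-/- ProteinFx, the median log2 fold changes were -0.52, -0.82, -1.06 and -0.79 for the 46 60S genes and -0.51, -0.93, -1.11 and -0.90 for the 31 40S genes, with 34, 41, 45 and 43 of the former and 20, 28, 30 and 29 of the latter lower. Among functional groups the medians of the 4 genes of the stalk and its base, which recruits the GTPase translation factors, were lower, at -0.77, -1.31, -1.43 and -1.15. The 5 genes of the messenger exit and platform on the 40S subunit followed with -0.54, -1.11, -1.30 and -0.99. The 6 genes of the messenger entry and head had -0.40, -0.56, -0.84 and -0.71, and the 8 genes at the peptide exit tunnel had -0.47, -0.42, -0.78 and -0.55. The 2 partners of 5S ribosomal RNA, Rpl5 and Rpl11, which also bind the p53 regulator Mdm2, had medians of -0.51, -0.86, -1.18 and -0.92. The 8 copies and paralogs had -0.17, -0.11, -0.41 and -0.32.

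Rplp0, the scaffold of the stalk (ENSMUSG00000067274), was at 870.5, 818, 294 and 615 CPM in PBS. It was at 322, 309, 311 and 405 CPM after RNY1+/+ EVFx and 194, 210, 203 and 187 CPM after RNY1-/- EVFx. After ProteinFx it was at 181, 166, 186 and 139 CPM (RNY1+/+) and 305, 318, 195 and 184 CPM (RNY1-/-). PBS replicate 3 lay below all RNY1+/+ EVFx libraries and within the range of the RNY1-/- ProteinFx libraries, and all other PBS libraries lay above every treated library. The log2 fold changes against PBS were -0.77 (SE 0.27, adjusted p = 0.0385), -1.47 (SE 0.27, adjusted p = 0.000746), -1.79 (SE 0.27, adjusted p = 0.000246) and -1.32 (SE 0.31, adjusted p = 0.00906) in the order above. The first call was lost with Rab14, Arpc2 and Cltc scaling (adjusted p = 0.0545) and when any of PBS replicates 1, 2 and 4 or RNY1+/+ EVFx replicates 1, 2 and 3 was left out, the highest adjusted p being 0.11. The fourth was lost with RNY1-/- ProteinFx replicates 3 and 4 left out (-1.04, adjusted p = 0.109). Rplp1, an acidic stalk protein that binds Rplp0, was at 3108, 2893, 1368 and 2344 CPM in PBS and at 540 to 1220 CPM in the 16 treated libraries, all of them below every PBS library. Its log2 fold changes were -0.99 (SE 0.21), -1.52 (SE 0.21), -1.65 (SE 0.22) and -1.32 (SE 0.24), with adjusted p from 0.000107 to 0.00318.

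Rps16, a 40S protein, had the lowest log2 fold change of all members against PBS in each comparison: -1.35 (SE 0.30, adjusted p = 0.00365), -1.98 (SE 0.30, adjusted p = 0.000231), -2.27 (SE 0.32, adjusted p = 0.000128) and -1.81 (SE 0.34, adjusted p = 0.00286). Its PBS libraries were at 623, 572, 182 and 428 CPM. RNY1+/+ EVFx libraries were at 160, 145, 145 and 178 CPM and RNY1-/- EVFx libraries at 104, 100.2, 97.4 and 86.0 CPM. RNY1+/+ ProteinFx libraries were at 91.8, 83.0, 98.8 and 61.6 CPM and RNY1-/- ProteinFx libraries at 154, 153, 101 and 86.6 CPM. All 16 treated libraries lay below all PBS libraries, although PBS replicate 3 was near the highest RNY1+/+ EVFx library. Leaving out RNY1-/- ProteinFx replicates 3 and 4 lost the last call of Rps16 (-1.53, adjusted p = 0.0505). Rps16 has 2 named pseudogenes with a mean of 75.8 CPM. Rps6, the small-subunit protein phosphorylated by S6 kinases, was at 239 to 255 CPM in PBS replicates 1, 2 and 4 and 136 CPM in replicate 3, and at 172, 166, 170 and 189 CPM after RNY1+/+ EVFx (log2 fold change -0.17, SE 0.18, adjusted p = 0.469). It was at 102, 107, 120 and 95.6 CPM after RNY1-/- EVFx (-0.82, SE 0.18, adjusted p = 0.00253), 96.5, 87.6, 106 and 82.1 CPM after RNY1+/+ ProteinFx (-1.08, SE 0.19, adjusted p = 0.000553) and 140, 148, 81.2 and 84.4 CPM after RNY1-/- ProteinFx (-0.90, SE 0.24, adjusted p = 0.016). Without PBS replicate 3, the RNY1+/+ EVFx change of Rps6 was -0.34 (adjusted p = 0.00236). Its call after RNY1-/- ProteinFx was lost without replicate 4 of that group (-0.80, adjusted p = 0.055) and without replicates 3 and 4 (-0.60, adjusted p = 0.15). Among other members after RNY1+/+ ProteinFx, Rpl5 fell by 1.08 (SE 0.12, adjusted p = 2.19e-05), Rpl11 fell by 1.28 (SE 0.18, adjusted p = 0.000146) and Rpsa, a protein of the 40S platform, fell by 1.36 (SE 0.19, adjusted p = 0.000108) on the log2 scale.

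Rps27l, Rpl39l, Rpl22l1, Rps24 and Rps4l were called lower in none of the comparisons with PBS in the main fits. With replicate number as a block, the rare Rps4l was lower after RNY1-/- EVFx (-0.62, adjusted p = 0.0407) and after RNY1-/- ProteinFx (-0.85, adjusted p = 0.0143), as it was in both without PBS replicate 3. Total counts also gave a lower Rps4l after RNY1-/- EVFx (-0.82, edgeR adjusted p = 0.0326). Rpl24, a 60S surface protein, changed direction with the fraction. It was at 351, 337, 328 and 358 CPM in PBS, 391, 388, 455 and 420 CPM after RNY1+/+ EVFx (log2 fold change 0.44, SE 0.09, adjusted p = 0.0027) and 331, 325, 377 and 380 CPM after RNY1-/- EVFx (0.28, SE 0.10, adjusted p = 0.0364). After RNY1+/+ ProteinFx it was at 243, 237, 266 and 220 CPM (-0.34, SE 0.10, adjusted p = 0.0116) and after RNY1-/- ProteinFx at 273, 270, 257 and 222 CPM (-0.36, SE 0.10, adjusted p = 0.0203). The RNY1+/+ EVFx libraries lay above and all ProteinFx libraries below the PBS range. The rise of Rpl24 after RNY1-/- EVFx was lost with total counts (0.040, adjusted p = 0.738), with no filter on low counts and without PBS replicate 1 or 2 or RNY1-/- EVFx replicate 3 or 4. With length and GC trends removed both falls were lost (-0.17 and -0.22), and the one after RNY1-/- ProteinFx was lost without PBS replicate 1 or 4, without RNY1-/- ProteinFx replicate 4 or replicates 3 and 4 (-0.32, adjusted p = 0.121) and with no filter. Rps24, a 40S protein, was at 2279, 2273, 2458 and 2352 CPM in PBS and at 1567 to 2570 CPM in the treated libraries, and its log2 fold changes against PBS, -0.17, 0.08, -0.11 and 0.06, were not called (adjusted p from 0.171 to 0.636). With total counts Rps24 was lower after RNY1+/+ EVFx (-0.35, edgeR adjusted p = 0.00902).

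Rps27 and its paralog Rps27l, which is known as a p53 target, were among the pairs that moved apart. Rps27 was at 1097, 1016, 675 and 1008 CPM in PBS and between 233 and 513 CPM in all 16 treated libraries. Its log2 fold changes against PBS were -0.89 (SE 0.15, adjusted p = 0.000542), -1.23 (SE 0.15, adjusted p = 3.9e-05), -1.52 (SE 0.16, adjusted p = 1.7e-05) and -1.16 (SE 0.21, adjusted p = 0.00221). Rps27l was at 1195, 1093, 1511 and 1216 CPM in PBS, 962, 1023, 1200 and 869 CPM after RNY1+/+ EVFx and 1366, 1154, 1490 and 1361 CPM after RNY1-/- EVFx. After RNY1+/+ ProteinFx it was at 1697, 1584, 1538 and 1225 CPM and after RNY1-/- ProteinFx at 1860, 1768, 2148 and 2061 CPM. The last group lay wholly above PBS, and the others overlapped it. The log2 fold changes were -0.13 (SE 0.14, adjusted p = 0.471), 0.34 (SE 0.13, adjusted p = 0.0398), 0.44 (SE 0.13, adjusted p = 0.0157) and 0.72 (SE 0.14, adjusted p = 0.00318). The second and the third were not called when libraries were scaled to total counts (0.10 and 0.27) or with length and GC trends removed (0.12 and 0.21). The second was also lost without any 1 of PBS replicates 1, 2 and 4 and RNY1-/- EVFx replicates 1, 3 and 4, and the third without PBS replicate 2 or RNY1+/+ ProteinFx replicate 1, whereas the call after RNY1-/- ProteinFx held in all alternatives.

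Rpl22, a 60S protein, and its paralog Rpl22l1 also differed. Rpl22 was at 743, 705, 611 and 725 CPM in PBS and at 291 to 506 CPM in the treated libraries, all of which were lower, with log2 fold changes of -0.41 (SE 0.10), -0.56 (SE 0.10), -0.87 (SE 0.11) and -0.61 (SE 0.12) and adjusted p from 6.54e-05 to 0.00533. The last was lost with RNY1-/- ProteinFx replicates 3 and 4 left out (-0.47, adjusted p = 0.0555). Rpl22l1 was at 177, 214, 387 and 296 CPM in PBS and 190, 203, 254 and 179 CPM after RNY1+/+ EVFx. It was at 276, 254, 383 and 342 CPM after RNY1-/- EVFx, 210, 217, 227 and 182 CPM after RNY1+/+ ProteinFx and 159, 217, 284 and 234 CPM after RNY1-/- ProteinFx. The wide PBS range covered nearly all of these, and no comparison of Rpl22l1 with PBS was called in the main fits. With length and GC trends removed Rpl22l1 was lower after RNY1+/+ ProteinFx (-0.46, edgeR adjusted p = 0.016) and RNY1-/- ProteinFx (-0.45, adjusted p = 0.0478). With no filter on low counts it was higher after RNY1-/- EVFx (0.47, adjusted p = 0.00285). For RNY1-/- EVFx the log2 fold change was 0.47 (SE 0.23, adjusted p = 0.0983), and with replicate number as a block it was 0.51 (adjusted p = 0.004). Without PBS replicate 3 it was 0.70 (adjusted p = 0.00347).

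Rpl39, a short protein of the exit tunnel, was at 948, 896, 1290 and 1058 CPM in PBS and 634, 663, 718 and 588 CPM after RNY1+/+ EVFx (log2 fold change -0.51, SE 0.13, adjusted p = 0.00829), but overlapped PBS after RNY1-/- EVFx, at 856, 740, 958 and 912 CPM (-0.03). Its rare paralog Rpl39l, known for its expression in testis, was at 7.79, 6.10, 6.31 and 5.28 CPM in PBS and at 8.29 to 14.5 CPM after RNY1-/- EVFx, with no overlap and a log2 fold change of 1.01 (SE 0.21, adjusted p = 0.00171). After RNY1+/+ EVFx it was at 6.27 to 11.9 CPM (0.74, SE 0.22, adjusted p = 0.0176). This second call was lost with total counts (0.57, adjusted p = 0.0525) and without PBS replicate 4 or RNY1+/+ EVFx replicate 1. After ProteinFx the changes of Rpl39l were 0.52 (SE 0.23, adjusted p = 0.0684) for RNY1+/+ and 0.18 (adjusted p = 0.534) for RNY1-/-. Rpl36a and Rpl36al are nearly identical proteins from separate genes. Rpl36a was at 649 to 695 CPM in PBS and 275 to 503 CPM in the treated libraries, while Rpl36al was at 200 to 211 CPM in PBS and 136 to 202 CPM in the treated ones and was lower in 1 of the 4 comparisons.

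**Figure D3:**
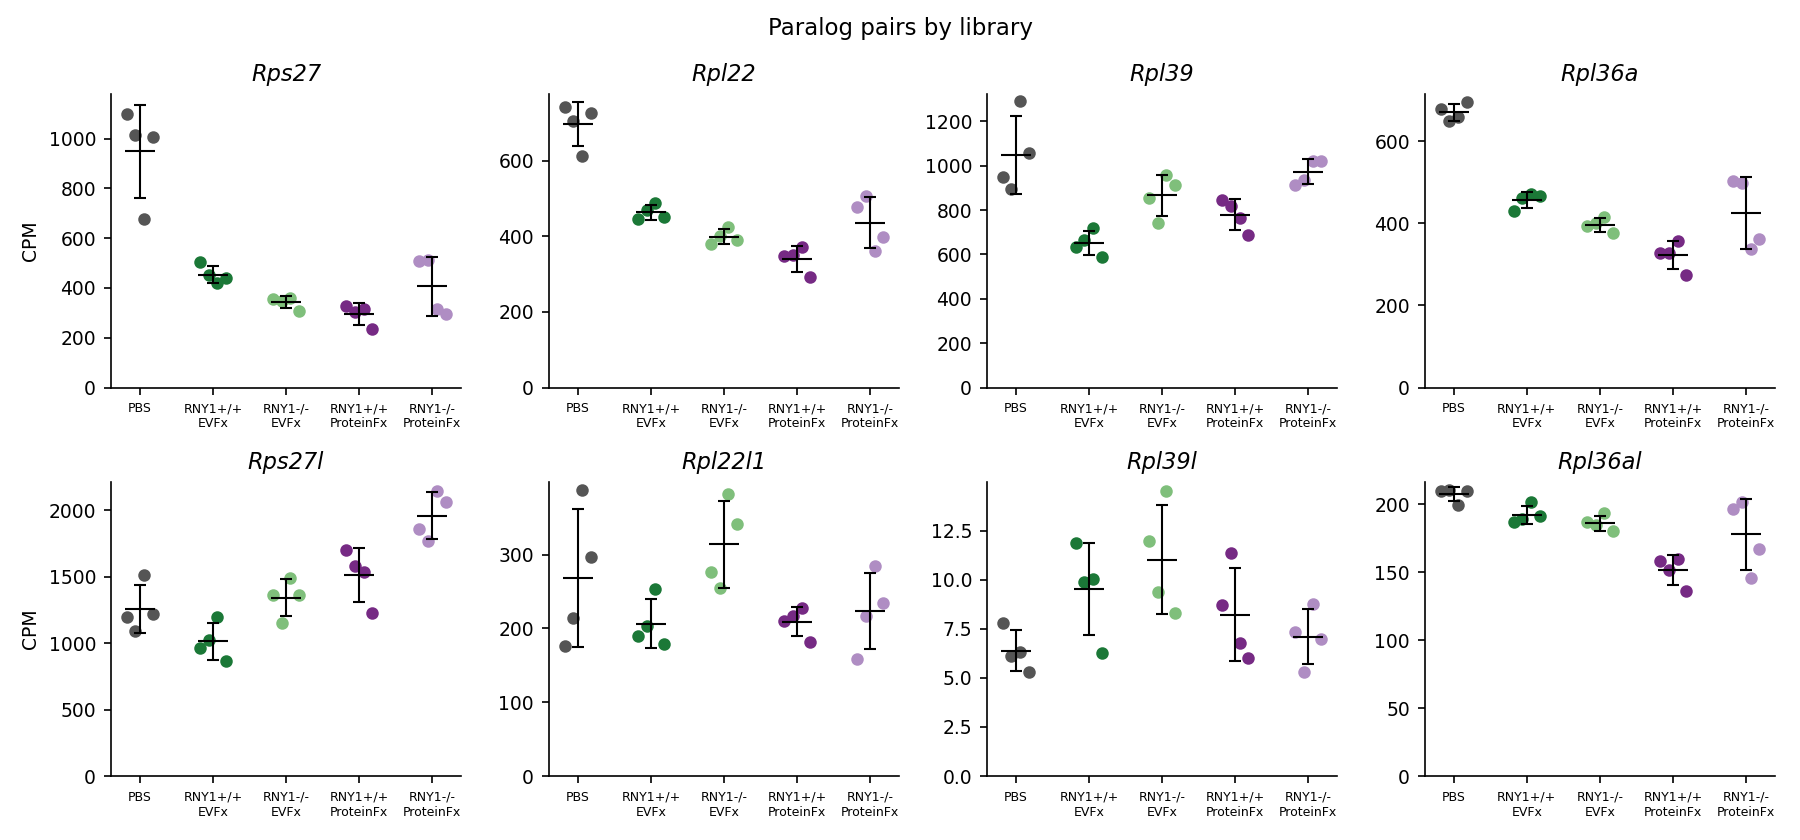
CPM of 4 genes and their paralogs in the 5 groups. Points are libraries and black marks are the mean ± SD (n = 4). Rps27, Rpl22 and Rpl36a are highest in PBS, whereas Rps27l is highest after RNY1-/- ProteinFx (1768 to 2148 CPM) and Rpl39l lies above PBS after RNY1-/- EVFx (8.29 to 14.5 against 5.28 to 7.79 CPM).

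With EVFx, most members were lower after fluid from RNY1-/- donors than after fluid from RNY1+/+ donors. In RNY1-/- EVFx against RNY1+/+ EVFx 55 of 86 members were lower (26.6% of 10321 genes tested) and 5 higher (25.5%), with a median log2 fold change of -0.29 over the members and 0.00 over all genes. Every RNY1-/- EVFx library lay below every RNY1+/+ EVFx library for 60 members (26.25% of genes). Beyond the absolute log2 fold change of 1 there was a single member (1.98% of all genes), Rpl29, a small 60S protein, at 23.0, 23.5, 26.5 and 34.8 CPM after RNY1+/+ EVFx and 11.8, 13.1, 12.7 and 9.90 CPM after RNY1-/- EVFx (-1.11, SE 0.15, adjusted p = 0.000221). Rplp0 fell by 0.69 on the log2 scale (SE 0.09, adjusted p = 0.000215), Rps6 fell by 0.65 (SE 0.08, adjusted p = 0.000199), Rps16 fell by 0.63 (SE 0.08, adjusted p = 0.000221) and Rpl18, a 60S protein, fell by 0.95 (SE 0.12, adjusted p = 0.000215). The groups did not overlap for Rplp0, Rps6 or Rps16. The 5 members that rose were Rpl22l1 (0.68, SE 0.14, adjusted p = 0.0018), Rpl39 (0.48, SE 0.10, adjusted p = 0.00141), Rps27l (0.48, SE 0.11, adjusted p = 0.00301), Rps24 (0.26, SE 0.07, adjusted p = 0.0103) and Rps13 (0.23, SE 0.09, adjusted p = 0.0385). The calls of Rps24 and Rps27l were lost with length and GC trends removed (0.13 and 0.22), that of Rps24 also with no filter on low counts, and that of Rps13 with total counts (0.16), TMM without the ribosomal protein genes, no filter and without RNY1+/+ EVFx replicate 1, 2 or 4 or RNY1-/- EVFx replicate 3 or 4. With the trends of fold change with transcript length and GC content removed, 33 members were lower with a median of -0.13. The share of all genes called in this fit is not given here, so the count does not set the members apart.

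With ProteinFx the genotype of the donor gave no called member. In RNY1-/- ProteinFx against RNY1+/+ ProteinFx 0 of 85 members tested were called by edgeR in either direction (2.2% of 10471 genes were higher and 3.37% lower) and 0 by DESeq2. At an unadjusted p under 0.05 by edgeR, 32 were higher and 0 lower, and the share of all genes at this limit was not counted. The median log2 fold change was 0.25, against 0.02 over all genes. By sign alone 81 members lay above 0 and 4 below, against 46.8% of all genes below 0. The 4 RNY1-/- libraries lay above all RNY1+/+ libraries for 18 members (9.35% of genes). This comparison turned on which RNY1-/- ProteinFx libraries were used: with replicates 3 and 4 left out, 60 members were higher with a median of 0.43, with replicates 1 and 2 left out, 2 were higher with a median of 0.07, and with replicate 3 alone left out, 3 were higher. The shares of all genes called in these refits are not given here, so the counts do not show whether the members stood out. The total counts were 5293171 and 7149366 in replicates 1 and 2 and 2510005 and 3855450 in replicates 3 and 4, and the part of depth in this split was not tested.

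The genotype effect differed between the fractions. The difference of both effects, ProteinFx minus EVFx, was tested over 16 libraries as an interaction. It was called above 0 in 59 of 85 members (16.8% of 10445 genes) and below 0 in 1 (16.2%), Rpl22l1, with a median log2 difference of 0.54 over the members and 0.00 over all genes. It was called and exceeded 1 in 7 members (5.33% of genes), among them Rpl29 (1.56, SE 0.29, adjusted p = 0.0031), Rplp0 (1.18, SE 0.20, adjusted p = 0.0017), Rps16 (1.11, SE 0.21, adjusted p = 0.00316), Rps26, Rps2 and Rps15. For Rplp0 the genotype log2 fold change was -0.69 in EVFx and 0.49 (SE 0.16, adjusted p = 0.108) in ProteinFx. In Rpl22l1 the difference was -0.66 (SE 0.24, adjusted p = 0.038), and it was not called under total counts, Rab14, Arpc2 and Cltc scaling, with trends removed, or in most fits that left out 1 library. By role, 34 of the 46 60S and 23 of the 31 40S core genes had a difference called above 0, as did 3 of 4 genes of the stalk and its base, 5 of 5 of the messenger exit and platform and 4 of 8 at the exit tunnel. With RNY1-/- ProteinFx replicates 1 and 2 left out, the difference of Rpl29 was 0.98 (adjusted p = 0.0583) and that of Rplp0 0.85 (adjusted p = 0.011), 17 members were called with a median of 0.36, and with replicates 3 and 4 left out, 69 were called with a median of 0.70. For these 2 refits too, the share of all genes called is not given here.

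**Figure D4:**
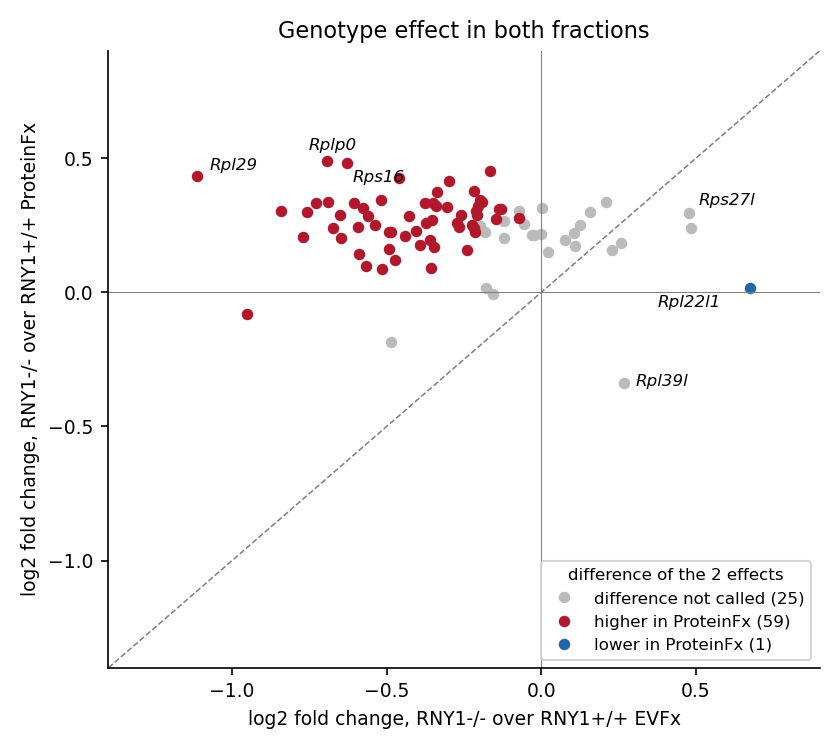
log2 fold change of RNY1-/- over RNY1+/+ in EVFx (x axis) and in ProteinFx (y axis), 1 point per member. Colour gives the test of the difference of both effects, higher in ProteinFx for 59 members, lower for 1 and not called for 25, and the dashed line marks equal effects. Most points lie to the left of 0 on the x axis and above 0 on the y axis, with Rpl29 at -1.11 on the x axis and Rpl22l1 at 0.68.

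Between the fractions of RNY1+/+ fluid, members were lower with ProteinFx. In RNY1+/+ ProteinFx against RNY1+/+ EVFx 75 of 86 members were lower (32.2% of 10444 genes) and 3 higher (31.1%), with a median log2 fold change of -0.54 over the members and -0.02 over all genes, and all ProteinFx libraries lay below all EVFx libraries for 72 members (27.5%). By the limit of 1 on the log2 scale 2 members were lower (6.82% of genes), Rplp0 and Rpl29. Rplp0 fell by 1.01 (SE 0.11, adjusted p = 1.72e-06) on the log2 scale, Rps6 fell by 0.91 (SE 0.09, adjusted p = 6.98e-07) and Rpl24 fell by 0.78 (SE 0.09, adjusted p = 2.42e-06). Rps27l (0.57, SE 0.12, adjusted p = 0.000558), Rpl39 (0.26, SE 0.09, adjusted p = 0.0222) and Rps13 (0.21, SE 0.08, adjusted p = 0.0395) were higher. The calls of Rpl39 and Rps13 were lost with Rab14, Arpc2 and Cltc scaling (0.17 and 0.12), with no filter on low counts and without RNY1+/+ EVFx replicate 1 or 4 or RNY1+/+ ProteinFx replicate 1, and that of Rps13 also without RNY1+/+ EVFx replicate 2 or RNY1+/+ ProteinFx replicate 2 or 3. Between the fractions of RNY1-/- fluid few members were called. In RNY1-/- ProteinFx against RNY1-/- EVFx 7 of 85 were lower (14.6% of 10418 genes) and 2 higher (14.6%), with a median of 0.02 against 0.01 over all genes. Those lower included Rpl39l (-0.84, SE 0.22), Rpl22l1 (-0.66, SE 0.19), Rpl24 (-0.65, SE 0.11), Rps19bp1 (-0.57, SE 0.13), Rps27a (-0.46, SE 0.12) and Rps15a (-0.42, SE 0.12), with adjusted p from 0.000528 to 0.0205, and those higher were Rps27l and Rps29 (0.37 each). With RNY1-/- ProteinFx replicates 1 and 2 left out, the calls of Rpl39l (-0.60, adjusted p = 0.107), Rpl22l1 (-0.40, adjusted p = 0.0902) and Rps29 (0.16, adjusted p = 0.244) were lost, and with replicates 3 and 4 left out that of Rps27l (0.22, adjusted p = 0.118). Leaving out single libraries lost the calls of these 4 genes and of Rps15a at least once. Total counts lost those of Rps15a, Rps19bp1 and Rps27a, and Rab14, Arpc2 and Cltc scaling those of Rps27l and Rps29. With replicate number as a block, 4 were higher and 7 lower. Total-count scaling gave 6 higher and 3 lower and moved the median of all genes to 0.19, and Rab14, Arpc2 and Cltc scaling gave 0 higher and 8 lower. With RNY1-/- ProteinFx replicates 3 and 4 left out, 34 were higher and 6 lower, and with replicates 1 and 2 left out, 1 was higher and 21 lower. For these refits and scalings the shares of all genes called are not given here, so the counts do not set the members apart. Particle and protein doses are not matched, so these comparisons set fractions as given side by side.

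To see how the set changed in make-up, each member was also tested after scaling libraries to the summed counts of the 86 genes. This scale holds the members' sum constant and moves all other genes against it. The medians of all genes against PBS became 0.44, 0.59, 0.85 and 0.60. The shares of all genes in this paragraph thus follow from the scale and are no background for the members. On this scale 19 members were called after RNY1+/+ EVFx against PBS (9 higher, against 45.9% of all genes, and 10 lower, against 7.93%). After RNY1-/- EVFx 14 were higher (54.9%) and 32 lower (10.2%), after RNY1+/+ ProteinFx 9 higher (66.8%) and 22 lower (5.08%), and after RNY1-/- ProteinFx 6 higher (52.4%) and 17 lower (3.76%). In either direction the numbers were 19, 46, 31 and 23, and without PBS replicate 3 they were 43, 63, 51 and 46. Relative to the sum, Rps16 was at log2 fold changes of -0.81, -1.29, -1.34 and -1.13, the lowest of all members, and Rpl39l at 1.23, 1.64, 1.41 and 0.83. Rps27l had 0.93, 1.28 and 1.35 in the last 3 comparisons. Between the genotypes 10 were higher (35.9% of all genes) and 36 lower (16.1%) with EVFx. With ProteinFx edgeR called 0 (0.602% of all genes higher and 6.48% lower), and 3 passed an unadjusted p under 0.05, all lower; DESeq2 was not run on this scale. Between the fractions 7 were higher (50.8%) and 27 lower (11.8%) with RNY1+/+ fluid and 0 higher (12.4%) and 6 lower (11.3%) with RNY1-/- fluid. The interaction on this scale was called above 0 in 16 (3.82%) and below 0 in 6 (38.3%). Over the 20 libraries, each member's log2 CPM had a median correlation of 0.949 with the mean of the other members, 63 of 86 being above 0.9. The libraries share group, depth and scaling, so this describes the set and is no test. With group means removed the median was 0.877. The lowest correlations were those of Rps27l (-0.64), Rpl39l (-0.35), Rpl22l1 (-0.19), Rpl39 (0.00), Rps24 (0.10), Rps13 (0.33) and Rpl24 (0.40).

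The members are short, with a median transcript length of 704 bp against 1995 bp over the genes at 3 CPM or more, and have a median GC content of 51.7% (39.8% to 60.8%) against 49.8%. Against PBS, their log2 fold changes were lower at higher GC content, with Spearman's rho across members of -0.35, -0.49, -0.44 and -0.51, and across all other genes of -0.09, -0.42, -0.45 and -0.49. Between EVFx genotypes rho was -0.54 across members and -0.64 across other genes, and between RNY1+/+ fractions it was -0.45 and -0.49. It was positive between ProteinFx genotypes (0.13 and 0.16), between RNY1-/- fractions (0.25 and 0.07) and for the interaction (0.48 and 0.58). Genes of one library share its composition and are not independent replicates. After RNY1+/+ ProteinFx the 30 members under 50% GC had a median of -0.83 and the 56 at 50% or more a median of -1.14. Other genes with transcripts of at most 1000 bp had medians of -0.18, -0.25, -0.31 and -0.26 against PBS, of which 28.8%, 39.4%, 41.9% and 28.7% were lower. With the trends of length and GC content removed, the members' medians against PBS were -0.45, -0.58, -0.79 and -0.57, with 61, 63, 74 and 66 lower, and the interaction was called in 44. For these fits the shares of all genes called are not given here. Members were also grouped by the pyrimidine run near the start, with 24 at 8 or more bases, 12 at 5 to 7 and 28 at fewer. In this order the median log2 fold changes against PBS were -0.48, -0.53 and -0.51 after RNY1+/+ EVFx, -0.96, -0.85 and -0.78 after RNY1-/- EVFx, -1.09, -1.16 and -1.03 after RNY1+/+ ProteinFx and -0.88, -0.88 and -0.80 after RNY1-/- ProteinFx. No test was made between the classes.

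**Figure D5:**
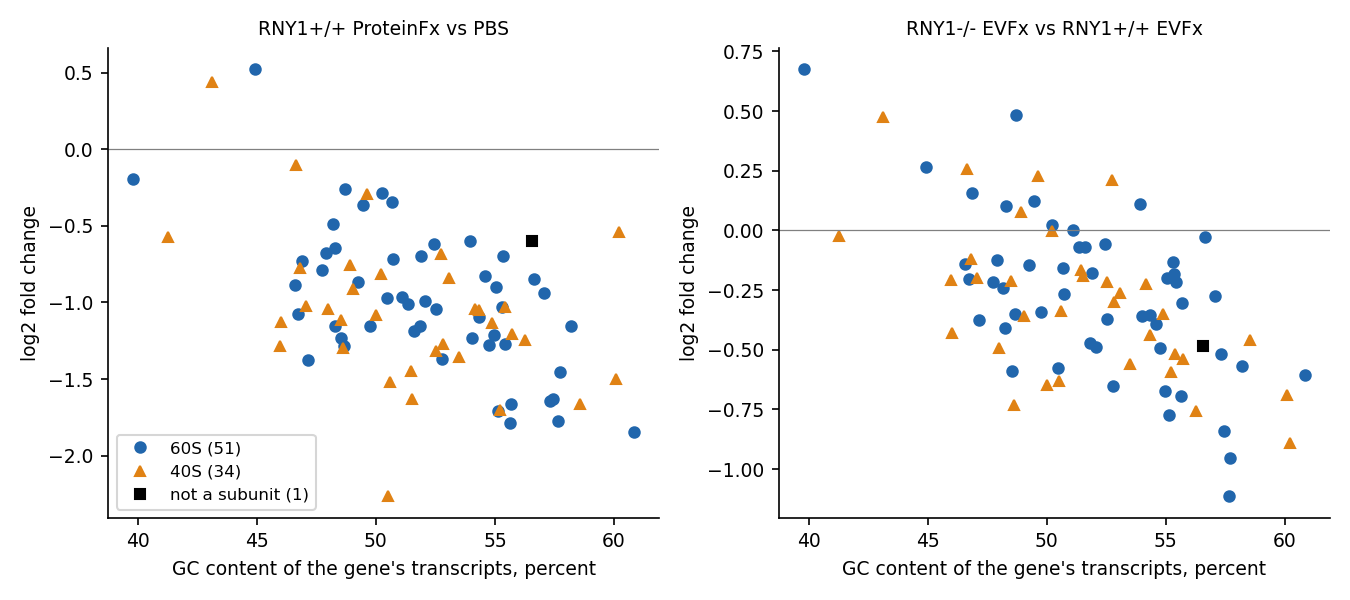
log2 fold change of each member against the GC content of its transcripts in percent, for RNY1+/+ ProteinFx against PBS (left) and RNY1-/- EVFx against RNY1+/+ EVFx (right). Circles are 60S genes (51), triangles 40S genes (34) and the square Rps19bp1. The points descend to the right in both panels, with rho of -0.44 and -0.54 over 86 members.

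Genes that act with the ribosome and lie outside the rule moved in part with the members. Fau, which encodes the 40S protein Rps30, had group means of 558 CPM in PBS and 246, 133, 160 and 209 CPM in the treated groups in the same order, and was lower in each (SE of the log2 fold changes 0.29 to 0.32, adjusted p from 0.000319 to 0.0158), though the first call was lost without RNY1+/+ EVFx replicate 3 (adjusted p = 0.0501). Rack1, a scaffold on the 40S head, had -0.39 (SE 0.19, adjusted p = 0.113), -0.89 (SE 0.20, adjusted p = 0.00248), -1.08 (SE 0.20, adjusted p = 0.000807) and -0.97 (SE 0.21, adjusted p = 0.00692). Of all genes tested in these 4 comparisons, 22.8%, 30.7%, 29.3% and 19% were lower and 21.7%, 27.6%, 25.9% and 16.7% higher, which is the background for the lists that follow. Of 8 elongation factors, 3, 7, 7 and 4 were lower and 1, 1, 1 and 0 higher. Eef2, which moves the ribosome along the messenger, had -0.61 (SE 0.27, adjusted p = 0.0922), -1.52 (SE 0.26, adjusted p = 0.000496), -1.60 (SE 0.26, adjusted p = 0.000381) and -1.52 (SE 0.30, adjusted p = 0.00375). The first changes of Rack1 and Eef2 were called lower with total counts, with length and GC trends removed and without PBS replicate 3. Without that library they were -0.58 (edgeR adjusted p = 0.000166) for Rack1 and -0.83 (adjusted p = 0.000819) for Eef2. Eef2 was also called lower there with no filter on low counts. Of 20 other TOP messengers, among them those of Fau and Rack1, 6, 14, 15 and 10 were lower and 0, 2, 2 and 2 higher. Of 37 initiation factors, 1, 11, 11 and 7 were lower and 12, 10, 7 and 3 higher, with median log2 fold changes of 0.22, 0.10, -0.22 and -0.18. Of 22 regulators of mTOR and TOP messengers, 5, 5, 8 and 5 were lower and 7, 7, 8 and 6 higher. Larp1, which binds TOP messengers, rose by 0.83 (SE 0.12, adjusted p = 0.000205), 0.62 (SE 0.12, adjusted p = 0.000964) and 0.66 (SE 0.12, adjusted p = 0.000659) in the first 3 comparisons. After RNY1-/- ProteinFx its change was 0.35 (SE 0.13, adjusted p = 0.0486), a call lost when any 1 library was left out, with 3 other scalings, with no filter and with pseudogenes added (adjusted p up to 0.134). Deptor, an inhibitor of mTOR, was at -3.11 (SE 0.15, adjusted p = 4.44e-08), -2.58 (SE 0.16, adjusted p = 2.6e-07), -1.35 (SE 0.16, adjusted p = 4e-05) and -0.32 (SE 0.14, adjusted p = 0.0916, and 0.0187 with replicate number as a block). In the test of the difference of genotype effects, Fau (1.11, SE 0.18, adjusted p = 0.00165), Eef2 (1.02, SE 0.22, adjusted p = 0.00489) and Rack1 (0.61, SE 0.16, adjusted p = 0.0117) were called above 0. Leaving out RNY1-/- ProteinFx replicates 1 and 2 lost the calls of Eef2 (0.67, adjusted p = 0.0664) and Rack1 (0.42, adjusted p = 0.115) in this test, and leaving out replicates 3 and 4 lost those of Fau (adjusted p = 0.105), Rack1 (adjusted p = 0.0886) and Eef2 (adjusted p = 0.0593) in RNY1-/- ProteinFx against PBS.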

How the data were processed

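The authors sequenced messenger 3′ ends primed with oligo(dT), trimmed reads with fastp 0.24.0, aligned them with STAR 2.7.11 (GRCm39), removed duplicates by unique molecular identifiers and counted genes by strand with featureCounts (Subread 2.1.1), splitting multi-mapping reads. The deposited table gives these fractional values, expected counts, and the CPM computed by the authors. Expected counts were rounded and tested with edgeR 4.0.16 (quasi-likelihood, TMM) on genes that passed filterByExpr and averaged 3 CPM or more in the libraries of the fit, with Benjamini-Hochberg adjustment over all genes tested; the SE came from the log2 fold change and its F statistic. CPM served for values per library. DESeq2 1.42.0, other scalings, no filter on low counts, a replicate block, removal of length and GC trends (splines of 4 degrees of freedom), pseudogenes added and leaving out libraries were tried. The code was tested on simulated data. The members and gene lists, among them Rab14, Arpc2 and Cltc from the study, were chosen with earlier results of these data known, and leaving out pairs of RNY1-/- ProteinFx libraries was chosen after the data were seen. Named genes were the paralog pairs, the stalk proteins, Rpsa, Rps6, Rpl5, Rpl11, Rps27a and others listed with them, the 3 highest and 3 lowest members of a comparison, those past both limits, and outside genes of the lists; Rps24, Rpl24, Rps13, Rps29, Rps15a and Rps19bp1 were named where a count of calls needed them. In RNY1-/- EVFx against PBS (correlations 0.129 to 0.381) and RNY1-/- ProteinFx against RNY1-/- EVFx (0.218 to 0.399), every same-numbered pair of libraries deviated together. Only 2 and 3 of 4 libraries there correlated best with their own number. In RNY1-/- ProteinFx against PBS the correlations were 0.018 to 0.641, and 3 libraries did. Whether the numbers pair libraries is thus uncertain, and the main tests did not pair them. Fits with a replicate block are given as an alternative. Lengths and GC content came from GENCODE M21 (GRCm38) and start sequences from RefSeq (GRCm38.p6); no coordinates of the counts' own build were used. RNY1 itself had at most 1.5 counts in a library. Total counts were 2510005 to 8277366 per library, and counting limits the precision of the rarest members. Results of some members and related genes are not reported here.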

Additional observations from a re-analysis of the deposited data

Results flagged for a closer look

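In groups of 4 libraries, a library was set apart when its gap to the nearest other, divided by the range of the group, exceeded Dixon's limit. Of 70 groups examined 3 passed, and chance gives about 1 in 20. These were Rps6 in PBS, where the lowest library, replicate 3, was at 136 CPM whereas the others were at 239 CPM or more, Rplp0 after RNY1+/+ EVFx, where replicate 4 was at 405 CPM against 309 to 322 CPM, and the members' share of counts after RNY1-/- EVFx, where replicate 3 was at 3.56% against 3.27% to 3.28%.

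The genotype effect differed between the fractions by the interaction test: 59 members had a higher effect in ProteinFx than in EVFx and 1 a lower one. Among the members described by library, the log2 differences were 1.56 in Rpl29, 1.18 in Rplp0, 1.11 in Rps16, 0.86 in Rplp1, 0.85 in Rps6, 0.71 in Rps27, 0.42 in Rpl22 and -0.66 in Rpl22l1. With RNY1-/- ProteinFx replicates 1 and 2 left out, 5 of these 8 were not called: Rpl29 (0.98, adjusted p = 0.0583), Rps6 (0.46, adjusted p = 0.0656), Rps27 (0.36, adjusted p = 0.149), Rpl22 (0.29, adjusted p = 0.18) and Rpl22l1 (-0.39, adjusted p = 0.279). Rpl22 was also not called without RNY1+/+ ProteinFx replicate 4 or RNY1-/- ProteinFx replicate 2.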

How the results depend on the processing

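DESeq2, TMM without the ribosomal protein genes and added pseudogenes left every count of called members within 1.5 times its value. The counts in this section and of refits in the text are given without the share of all genes called in the same fit. They describe how the calls moved and are no result particular to the members. Total counts moved the median of all genes to -0.21, -0.27, -0.20 and -0.10 against PBS and to 0.11, 0.19 and 0.16 between ProteinFx genotypes, between RNY1-/- fractions and for the interaction. It gave 1, 1 and 0 higher members after RNY1+/+ EVFx, RNY1-/- EVFx and RNY1+/+ ProteinFx against PBS, 1 higher between ProteinFx genotypes, and 6 higher and 3 lower between RNY1-/- fractions. With length and GC trends removed, 0 were higher after RNY1+/+ ProteinFx, 33 lower between EVFx genotypes, 2 higher between ProteinFx genotypes and 5 higher between RNY1-/- fractions. Rpl13a then reversed to 0.16 (edgeR adjusted p = 0.0915) between EVFx genotypes and 0.034 (adjusted p = 0.738) between RNY1+/+ fractions, Eif2s2 to -0.013 (adjusted p = 0.899) between EVFx genotypes, and Mrpl52 to 0.048 (adjusted p = 0.652) and 0.23 (adjusted p = 0.023) in the same 2 comparisons. Without a filter on low counts, 3 were higher between EVFx genotypes, 7 between ProteinFx genotypes and 1 between RNY1+/+ fractions. Rab14, Arpc2 and Cltc scaling gave 1 higher between RNY1+/+ fractions and 0 between RNY1-/- fractions. With RNY1-/- ProteinFx replicates 1 and 2 left out, 2 were higher between ProteinFx genotypes, 1 higher and 21 lower between RNY1-/- fractions, and 17 were called in the interaction. With replicates 3 and 4 left out, 23 were lower against PBS, 60 higher between ProteinFx genotypes and 34 higher between RNY1-/- fractions. The causes were not tested. Of the values of single genes, 7429 kept their side of the threshold, 181 gained and 340 lost a call, and 5 called in the main fit reversed. Direction was compared only for values called in the main fit, so changes of sign in other values are not counted as reversals.

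Leaving out 1 library at a time, the members lower against PBS ranged from 42 to 74, 68 to 76, 78 to 80 and 59 to 78 in the order of the text. Those higher ranged from 1 to 2, 1 to 4, 0 to 2 and 1 to 1. Between EVFx genotypes 50 to 59 were lower and 4 to 6 higher, and between ProteinFx genotypes 0 to 0 and 0 to 3. Between RNY1+/+ fractions 71 to 75 were lower and 1 to 3 higher, and between RNY1-/- fractions 4 to 7 (4 without RNY1-/- EVFx replicate 4) and 0 to 3. The interaction was called in 50 to 66. Relative to the members' own sum the ranges were 11 to 43, 27 to 63, 19 to 51 and 9 to 46 against PBS, the highest each time without PBS replicate 3, 40 to 49 between EVFx genotypes, 0 to 0 between ProteinFx genotypes, 23 to 43 between RNY1+/+ fractions and 3 to 7 between RNY1-/- fractions. Besides PBS replicate 3, leaving out PBS replicate 1, 2 or 4, RNY1+/+ EVFx replicate 2 or 4, RNY1-/- EVFx replicate 3 or 4, or RNY1-/- ProteinFx replicate 1, 3 or 4 lowered at least 1 of these counts relative to the own sum by over 1.5 times. Counts of members higher, of 5 or fewer, moved by over 1.5 times without PBS replicate 1, 2 or 4, RNY1+/+ EVFx replicate 1 or 4, any 1 RNY1-/- EVFx replicate, RNY1+/+ ProteinFx replicate 1 or 4, or RNY1-/- ProteinFx replicate 1, 2 or 3.

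The replicate block moved the number higher between RNY1-/- fractions from 2 to 4, and no other count of members by over 1.5 times, among them 54, 73, 78 and 78 lower against PBS and 62 in the interaction. In the 6 comparisons other than RNY1-/- EVFx against PBS and RNY1-/- ProteinFx against RNY1-/- EVFx, correlations of same-numbered libraries ran from -0.367 to 0.641.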

Other observations

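The ribosomal proteins of mitochondria, encoded in the nucleus and used to translate the mitochondrial genome, were measured beside those of the cytosol. Against PBS, 13 of 81 were lower and 17 higher after RNY1+/+ EVFx, with a median log2 fold change of -0.02, and 28 of 80 were lower and 15 higher after RNY1-/- EVFx (median -0.16). After ProteinFx, 30 of 80 were lower and 11 higher with RNY1+/+ fluid (median -0.33), and 14 lower and 9 higher with RNY1-/- fluid (median -0.21). Of all genes tested, 22.8%, 30.7%, 29.3% and 19% were lower and 21.7%, 27.6%, 25.9% and 16.7% higher in these comparisons. Between the genotypes 33 of 79 were lower and 11 higher with EVFx (26.6% and 25.5% of all genes). With ProteinFx 1 of 77, Mrpl52, was lower (3.37% of all genes). In the test of the difference of genotype effects 24 of 79 were called above 0 (16.8% of all genes) and 5 below (16.2%), with a median of 0.35. The share of counts on mitochondrial ribosomal proteins lay between 0.236% and 0.326% in the 20 libraries.

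Among regulators of mTOR, Sesn1, an inhibitor that senses amino acids and stress, was lower against PBS with every fraction, at log2 fold changes of -2.57 (SE 0.14), -2.21 (SE 0.13), -1.52 (SE 0.13) and -1.06 (SE 0.15) in the order RNY1+/+ EVFx, RNY1-/- EVFx, RNY1+/+ ProteinFx and RNY1-/- ProteinFx, with edgeR adjusted p from 1.05e-07 to 0.000493. Rheb, the GTPase that activates mTOR complex 1, was higher at 0.49 (SE 0.16), 1.22 (SE 0.16), 0.95 (SE 0.16) and 0.79 (SE 0.25), with adjusted p from 8.27e-05 to 0.0332. Its first call was lost with total counts (0.31) and in 6 fits without 1 library, the highest adjusted p of these being 0.0897, and the fourth with length and GC trends removed (0.53), in 5 fits without 1 library and with RNY1-/- ProteinFx replicates 3 and 4 left out (0.29, adjusted p = 0.38). Eif2s2, a subunit of the initiation factor eIF2, was higher at 0.89 (SE 0.11), 1.17 (SE 0.11), 1.05 (SE 0.11) and 0.92 (SE 0.15), with adjusted p from 5.36e-06 to 0.00119. These 3 genes were chosen after their values were seen.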
